A study of Mus musculus with 7 samples.

Results

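The genes described here encode the proteins of the cytosolic ribosome, and were taken as every gene on the array whose symbol is Rpl or Rps followed by a number and at most 1 letter, together with Rplp0, Rplp1, Rplp2 and Rpsa, without the Rps6k kinases and without pseudogenes named as such. There were 64 of them among 22180 genes with a feature of 1 symbol, 40 of the large and 24 of the small subunit, and each was read from 1 array feature, the one with the highest mean over the arrays. The samples were 7 gene arrays of whole skeletal muscle RNA from mice. They comprised 3 arrays of young wildtype (WT) mice aged 2 to 3 months, 2 of aged WT mice aged 24 months and 2 of aged MISR mice, also 24 months old, which carry the IκB super-repressor, a dominant inhibitor of NF-κB, under the muscle creatine kinase (MCK) promoter, so that NF-κB is blocked in myofibers but not in satellite cells. The labels number the arrays of each group, and these numbers are kept here, so that the aged arrays are aged WT 2, aged WT 3, aged MISR 1 and aged MISR 2. The WT animals were bought from colonies and the MISR line was kept in house. MISR mice are described as having aged beside WT mice of like age, in the legend of other assays, and nothing says whether the array animals did. Genotype, source and any difference in strain therefore cannot be told apart in the comparisons with aged MISR muscle. No young MISR arrays were analysed here. Signals are log2 values after robust multi-array averaging (RMA), and all differences below are differences of log2 signal.

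A ribosome is built from ribosomal RNA and many different proteins. The large subunit forms peptide bonds while the small subunit reads the mRNA. Ribosomal protein mRNAs are among the most abundant of any cell, and muscle makes ribosomes when it grows and during repair. Most of these mRNAs begin with a C followed by a run of pyrimidines, the 5′ terminal oligopyrimidine (TOP) motif, through which mTORC1 and the RNA-binding protein LARP1 control their translation and stability. Ribosomal protein genes are also scattered over many chromosomes and have large numbers of processed pseudogenes, which array probes may not tell from the parent gene.

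Of the 64 genes, 55 passed the signal filter (at least 2 arrays at or above their median) and were tested, 34 of the large and 21 of the small subunit, and 53 stood at or above the median on all 7 arrays. The 9 below the filter were Rpl10l, Rpl11, Rpl30, Rpl32l, Rpl37, Rpl39l, Rps14, Rps15 and Rps29. Of the 64 genes, 57 were canonical ribosomal protein genes. A further 12 canonical genes, among them Rpl10, Rpl13a, Rpl23 and Rps2, were read only by features that carry several symbols. The 7 genes outside the canonical list were Rpl3l, Rpl10l, Rpl32l, Rpl39l, Rpl6l, Rps4l and Rps27l, of which RefSeq lists Rpl6l as a pseudogene and Rps4l as a transcribed pseudogene.

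A pyrimidine run of this kind was looked for in the reference sequence around the annotated start sites, which may differ from the true ends of the mRNAs. The 30 bases centred on the start (15 on each side, RefSeq, GRCm38.p6, strand of the gene) were read for the 49 of 64 genes with a start in the table, and 26 of them (53.1%) held a C followed by at least 5 pyrimidines, against 22.7% of 16918 array genes. Shown first are 8 genes with the run, which is in capitals and lies across the start in each of them, followed by 3 genes that the results below turn on. Rps6 encodes the S6 kinase substrate and lies at chr4:86857353-86857382 on the minus strand. The other windows are Rpl15 at chr14:18270972-18271001 (minus), Rpl35 at chr2:39005117-39005146 (minus), Rpl7a at chr2:26910792-26910821 (plus), Rps10 at chr17:27635230-27635259 (minus), Rps18 at chr17:33955651-33955680 (minus), Rpl28 at chr7:4792950-4792979 (plus) and Rplp2 at chr7:141447636-141447665 (plus). Rpl6 at chr5:121204486-121204515 (plus) had a short run upstream of the start, and Rpl26 at chr11:68901551-68901580 (plus) and Rpl3l at chr17:24727811-24727840 (plus) had none.
Rps6: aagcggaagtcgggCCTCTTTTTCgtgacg
Rpl15: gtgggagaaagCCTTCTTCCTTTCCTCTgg
Rpl35: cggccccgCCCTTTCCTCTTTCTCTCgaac
Rpl7a: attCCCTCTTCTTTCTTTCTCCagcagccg
Rps10: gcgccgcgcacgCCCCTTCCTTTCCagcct
Rps18: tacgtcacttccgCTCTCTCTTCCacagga
Rpl28: ccgcctctcgtgtCTCTCTTTCCgtctccg
Rplp2: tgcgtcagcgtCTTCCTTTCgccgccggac
Rpl6: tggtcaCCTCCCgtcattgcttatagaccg
Rpl26: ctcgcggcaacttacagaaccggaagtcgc
Rpl3l: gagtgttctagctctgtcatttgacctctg

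Known promoter motifs were counted on both strands of the 300 bases from 250 before to 50 after the start, as letters only. The core of ETS-family sites, CCGGAAG, was present in 42.9% of the 49 promoters and in 11.8% of all. The YY1 core AAGATGG was present in 12.2% against 6.52%. The E-box CACGTG, which Myc binds, was present in 6.12% against 8.22%, and an NF-κB site (3 G, A, any base, 3 T and 2 C) in 0 of 49 against 0.408%. The ETS and YY1 cores can share the letters AAG, and a match is a description of letters, not of a bound site.

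Most ribosomal protein genes read slightly higher in aged than in young WT muscle, and none passed the test. In aged WT against young WT muscle, 49 of the 55 tested genes had the higher mean in aged muscle and 6 the lower, with a median difference of 0.12 and a middle range (quartiles) of 0.072 to 0.19. The same median over all 13364 tested genes was 0.0077, with 52.2% of genes higher. No ribosomal protein gene had an adjusted p under 0.05 (limma, Benjamini-Hochberg over all tested genes), where 0.18% of all genes did, and the smallest adjusted p was 0.161. At an unadjusted p under 0.05 there were 5, all of them higher in aged WT muscle (Rpl6, Rpl8, Rpl13, Rplp0 and Rps9), while 15.7% of all genes passed that level and 9.26% passed it with the higher mean in aged WT. Student's t-test, which the methods state for other assays and not for the arrays and which is called the methods' t-test here, called none after adjustment. For 21 genes both aged WT arrays exceeded all 3 young WT arrays, and for 2 they were below them, against 22% and 15.7% of all genes.

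Genes of both subunits shared in this. The large subunit had a median of 0.12 with 31 of 34 genes higher, and the small subunit a median of 0.11 with 18 of 21 higher. Among the 38 genes whose feature had a mean signal of at least 8, 37 were higher with a median of 0.15, and among the 17 dimmer ones 12 were higher with a median of 0.086.

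**Figure D1:**
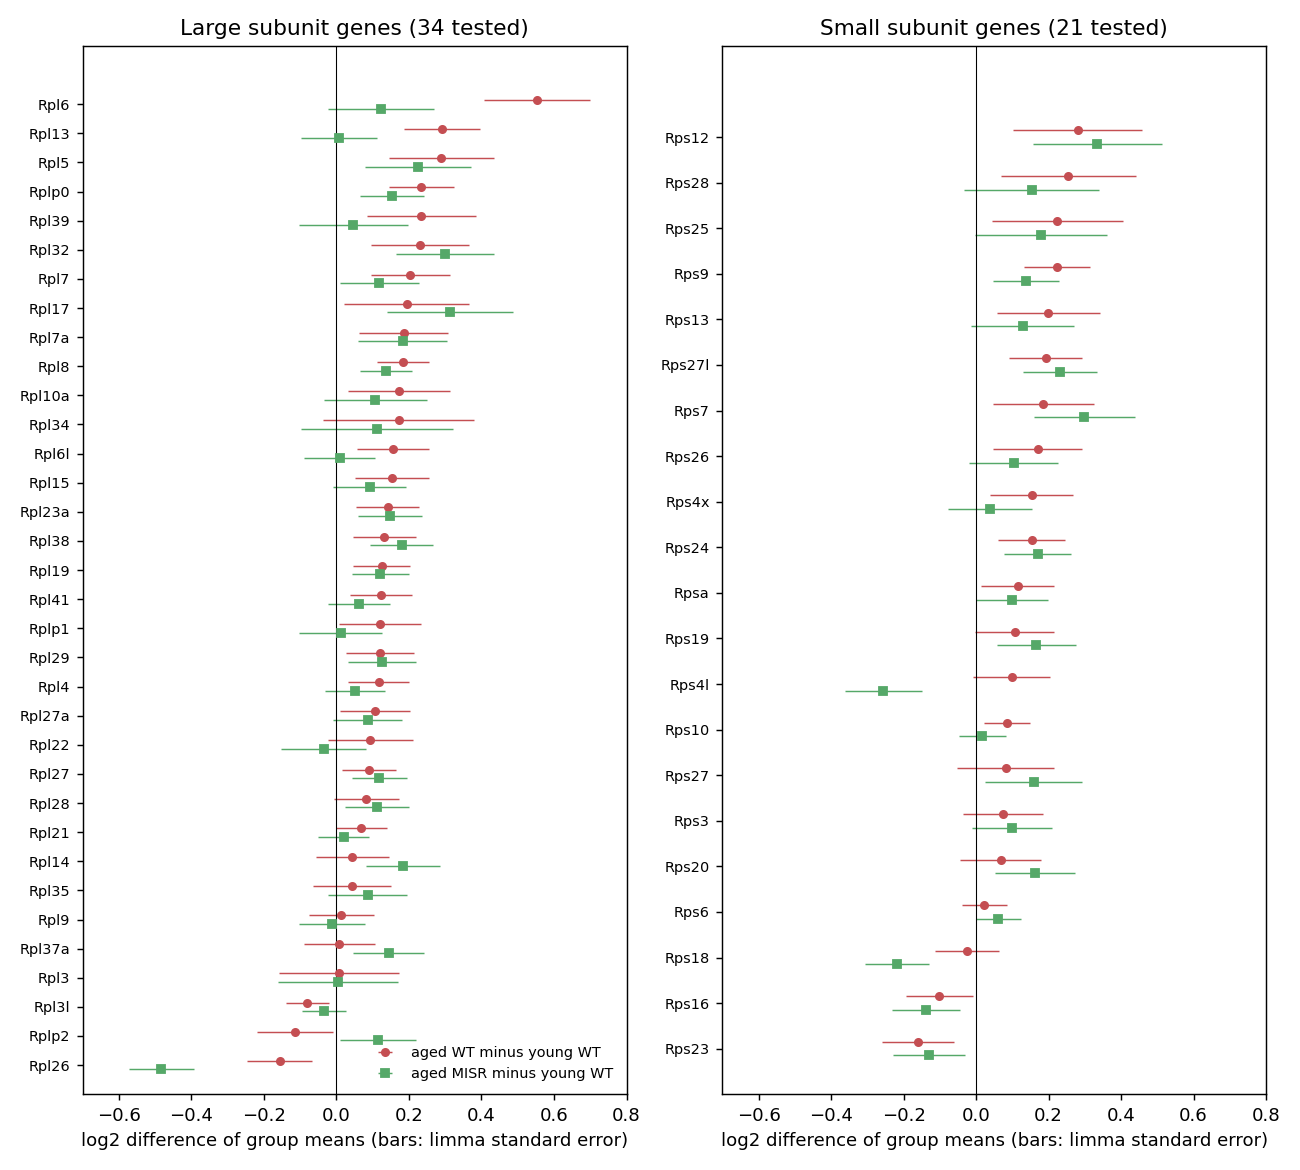
Log2 difference of group means for each of the 55 tested ribosomal protein genes, for aged WT minus young WT (red circles) and aged MISR minus young WT (green squares), with limma standard errors as bars and genes sorted by the first difference. Most points lie between 0 and 0.3, Rpl6 stands to the right in aged WT muscle at 0.55, and Rpl26 stands to the left in aged MISR muscle at −0.48.

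The higher readings were found mostly on aged WT 2 and aged MISR 1. Measured against each gene's young WT mean, the median of the 55 genes was 0.19 on aged WT 2 and 0.050 on aged WT 3, and 0.22 on aged MISR 1 and −0.025 on aged MISR 2. The young WT arrays stood at −0.018, 0.024 and 0.0013, and the median over all tested genes stayed between −0.018 and 0.034 on every array. Aged WT 2 and aged MISR 1 each had 49 of the 55 genes above the young WT mean, aged WT 3 had 41 and aged MISR 2 had 21. The median difference of aged WT from young WT muscle was thus 0.050 without aged WT 2 and 0.19 without aged WT 3.

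**Figure D2:**
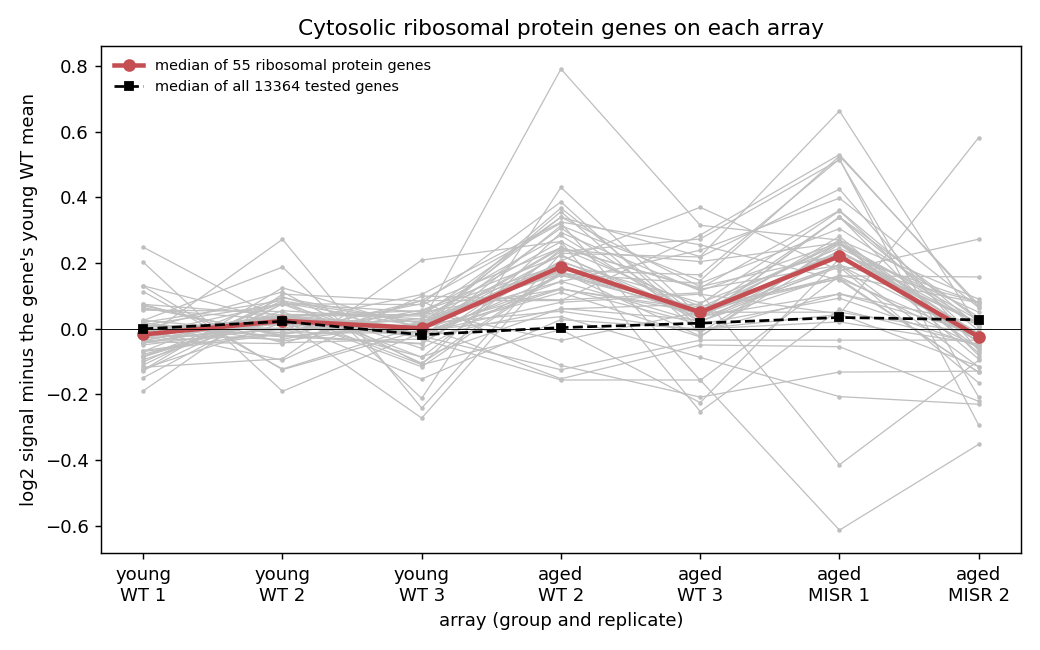
Log2 signal of each of the 55 tested ribosomal protein genes (grey lines) minus the gene's young WT mean, on each of the 7 arrays, with the median of the 55 genes (red) and of all 13364 tested genes (black, dashed). The red line stands at 0.19 on aged WT 2 and 0.22 on aged MISR 1, and stays between −0.025 and 0.050 on the other 5 arrays.

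Within each aged group, most ribosomal protein genes read higher on the same one of the arrays. Aged WT 2 read above aged WT 3 for 44 of 55 genes (80.0%), with a median of 0.12 between the arrays, where 45.0% of all tested genes read higher on aged WT 2. Aged MISR 1 read above aged MISR 2 for 49 of 55 genes (89.1%), with a median of 0.24, against 50.4% of all genes. Among the young WT arrays, the medians between pairs of arrays were 0.054, 0.015 and −0.021. The highest of the 7 readings fell on aged MISR 1 for 25 genes and on aged WT 2 for 20, so that these 2 arrays held the highest reading of 45.5% and 36.4% of the genes, against 23.6% and 14.9% of all genes. Aged MISR 2 held the highest reading of 1 gene (Rpl17) and the lowest of 16. It was above all 3 young WT arrays for 8 genes and below all 3 for 18, whereas aged MISR 1 was above all 3 for 42 and below for 4.

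**Figure D3:**
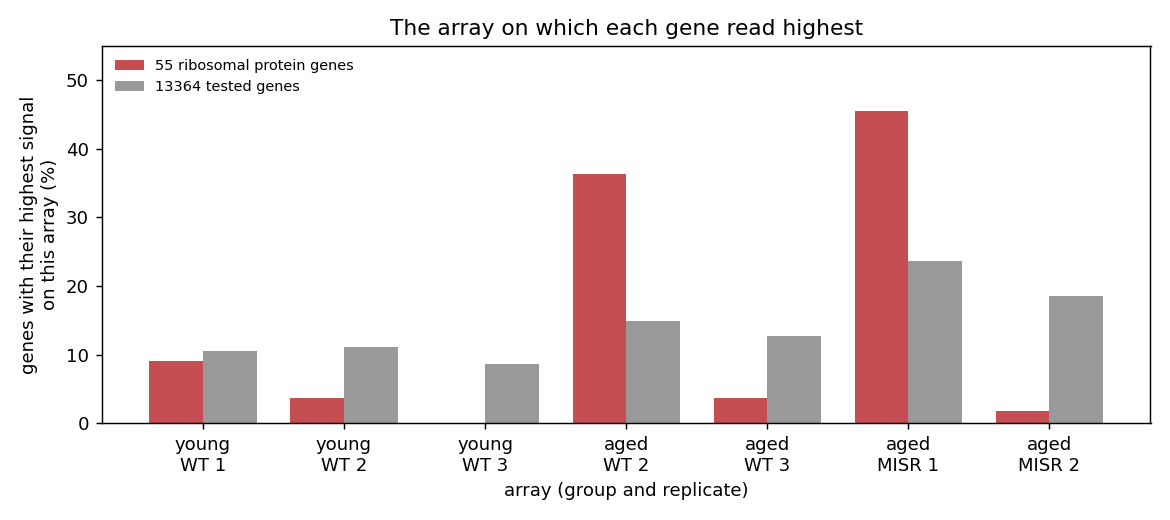
Percentage of genes whose highest of 7 readings fell on each array, for the 55 tested ribosomal protein genes (red bars) and for all 13364 tested genes (grey bars). Aged WT 2 (36.4%) and aged MISR 1 (45.5%) hold most of the ribosomal protein genes, and young WT 3 holds none.

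Markers of other cells differed between the same arrays. Muscle fiber markers (12 genes, among them Ckm and Acta1 of all skeletal fibers and fast-fiber genes such as Myh4) were at or above the array median on all arrays, with a mean signal of 13.1 to 13.2 on each, as the label of skeletal muscle requires. For 8 neutrophil and marrow markers, of which 4 were at or above the median on all arrays, the mean signal was 6.97 to 7.55 in young WT, 7.54 and 6.52 on aged WT 2 and 3, and 7.80 and 5.85 on aged MISR 1 and 2. Both arrays with high ribosomal protein signal were thus also the higher of their group for this list, while young WT 3, at 7.55, stood with aged WT 2 and had a ribosomal protein median of 0.0013. Tendon markers (6 genes, 4 of them at or above the median on all arrays) were lowest on the same arrays, with means of 6.73 on aged WT 2 and 6.94 on aged MISR 1, against 7.23 to 7.34 on the 5 others. Markers of fibro-adipogenic progenitors (7 measured) had means of 8.26 and 8.59 on aged WT 2 and 3, against 8.91 to 9.06 in young WT and 9.14 and 9.05 on aged MISR 1 and 2. The 7 measured B and plasma cell markers had means of 8.79 and 8.10 on aged MISR 1 and 2 and 7.25 to 7.75 on the 5 others. Of 7 platelet markers, 6 were measured, and their mean was 8.89 on aged MISR 1 and 7.03 to 7.88 on the 6 other arrays. For 12 macrophage and monocyte markers the mean was 7.65 and 7.05 on aged WT 2 and 3, and 8.16 and 8.06 on aged MISR 1 and 2, against 7.38 to 7.51 in young WT. For 7 measured adipocyte markers it was 8.04 on aged MISR 2 and 7.08 to 7.25 elsewhere, for 6 endothelial markers it was 9.72 on aged MISR 2 and 9.25 to 9.47 elsewhere, and for 8 slow fiber markers it was 9.46 to 9.50 in young WT and 7.93 to 9.03 on the aged arrays. The part of these markers in the ribosomal protein values was not tested, and in whole muscle a change in the share of a cell type and in RNA per cell cannot be told apart.

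Rpl6, a large subunit protein (chr5:121204501-121209241), had the largest difference with age. It read 7.71, 7.66 and 7.72 in young WT, 8.49 and 8.01 in aged WT muscle, with 7.97 and 7.67 in aged MISR muscle. Both aged WT arrays were above all young WT and both aged MISR arrays, while the aged MISR arrays overlapped young WT. Aged WT exceeded young WT by 0.55 (standard error 0.15, 1.47-fold, adjusted p = 0.161 from limma), and aged MISR stood 0.43 lower than aged WT (log2 difference −0.43, standard error 0.16, adjusted p = 0.359). Rpl6l, the pseudogene of the same family, read 9.89 on each young WT array, 10.13 and 9.96 in aged WT muscle, with 10.04 and 9.76 in aged MISR muscle. Its aged WT arrays were also above young WT, by 0.16 on average (adjusted p = 0.473 from limma).

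Rpl13, also of the large subunit, had a like pattern with a smaller span. It read 8.58, 8.72 and 8.81 in young WT, 9.03 and 8.96 in aged WT muscle, with 8.85 and 8.57 in aged MISR muscle. Neither aged WT array overlapped any array of the other groups, and the difference was 0.29 from young WT (adjusted p = 0.257) and −0.28 between aged MISR and aged WT (adjusted p = 0.388, both from limma). Both aged WT arrays exceeded young WT on both of its features, but the separation from aged MISR held for the brighter one alone. The dimmer one read 6.59, 6.52 and 6.59 in young WT, 6.77 and 6.72 in aged WT muscle, with 6.91 and 6.41 in aged MISR muscle, so that aged MISR 1 was the highest of the 7. Rpl8 read 9.90, 9.98 and 9.94 in young WT, 10.19 and 10.06 in aged WT muscle, with 10.13 and 10.02 in aged MISR muscle. All 4 aged arrays of Rpl8 were above young WT (differences of 0.18 and 0.14, adjusted p = 0.282 and 0.340 from limma). Rps9, a small subunit protein, read 9.04, 9.10 and 8.94 in young WT, 9.27 and 9.23 in aged WT muscle, with 9.29 and 9.04 in aged MISR muscle, a difference of 0.22 with age in WT (adjusted p = 0.300 from limma). On its dimmer feature that difference was 0.014, and the aged WT arrays lay within the young WT range.

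The stalk proteins, which recruit and activate translational GTPases on the large subunit, are Rplp0, Rplp1 and Rplp2. Rplp0, the base of the stalk and a common reference gene in quantitative PCR, read 10.02, 10.14 and 10.14 in young WT, 10.44 and 10.23 in aged WT muscle, with 10.33 and 10.18 in aged MISR muscle. All 4 aged arrays were above the 3 young WT arrays, by 0.23 in aged WT (standard error 0.089, adjusted p = 0.276) and 0.15 in aged MISR muscle (adjusted p = 0.378, limma). The dimmer feature of Rplp0 read 6.50, 6.37 and 6.23 in young WT, 6.82 and 6.43 in aged WT muscle, with 6.37 and 6.28 in aged MISR muscle. On it only aged WT 2 was above all young WT arrays, and the difference of aged MISR from young WT muscle was −0.038. Rplp1 read 11.20, 11.12 and 11.09 in young WT, 11.35 and 11.17 in aged WT muscle, with 11.33 and 10.97 in aged MISR muscle, and all groups overlapped. Rplp2 read 5.82, 5.94 and 5.71 in young WT, 5.82 and 5.60 in aged WT muscle, with 6.04 and 5.84 in aged MISR muscle. It had the largest positive difference of aged MISR from aged WT muscle among these genes (0.23, standard error 0.12, adjusted p = 0.478 in limma), and was the only tested one with both aged MISR arrays above the aged WT pair. Its signal was close to the array medians of 5.86 to 5.93.

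The small subunit genes with the largest differences with age were Rps12 and Rps28. Rps12 read 8.81, 9.02 and 8.94 in young WT, 9.26 and 9.14 in aged WT muscle, with 9.59 and 8.93 in aged MISR muscle. The difference of aged WT from young WT was 0.28 (limma, standard error 0.18, adjusted p = 0.477), and the aged MISR arrays lay on both sides of the aged WT arrays. The 8 features of Rps12 held 3 sets of values, which had the same sign in every comparison. Rps28 read 9.66, 9.56 and 9.54 in young WT, 9.82 and 9.86 in aged WT muscle, with 10.10 and 9.38 in aged MISR muscle. The aged WT arrays agreed closely and were above young WT by 0.25 (adjusted p = 0.533 from limma). On another Rps28 feature, below the filter, that difference was −0.21. On the brighter one, the 2 aged MISR arrays were the highest and the lowest of the 7. Rpl34 had the same form, at 8.31, 8.49 and 8.43 in young WT, 8.59 and 8.57 in aged WT muscle, with 8.93 and 8.12 in aged MISR muscle.

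Rpl5 and Rpl11, which with the 5S ribosomal RNA bind and inhibit Mdm2 when ribosome assembly is disturbed, could be compared only in part, since Rpl11 was below the filter. Rpl5 read 6.59, 6.36 and 6.07 in young WT, 6.55 and 6.71 in aged WT muscle, with 6.52 and 6.61 in aged MISR muscle. Its differences from young WT were 0.29 and 0.22 (adjusted p = 0.383 and 0.418 from limma), and the young WT arrays spread over more than these differences. Rpl11 read 5.15 to 5.47 on the 7 arrays. Rps6, the substrate of the S6 kinases, was among the steadiest, at 13.08, 13.04 and 13.08 in young WT, 13.12 and 13.06 in aged WT muscle, with 13.18 and 13.08 in aged MISR muscle. Rpsa, also known as the laminin receptor precursor, read 10.60, 10.66 and 10.60 in young WT, 10.78 and 10.68 in aged WT muscle, with 10.88 and 10.56 in aged MISR muscle.

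The genes with lower means in aged WT muscle were few and their differences small. Rps23, which lies at the decoding center, read 6.78, 7.08 and 7.06 in young WT, 6.86 and 6.76 in aged WT muscle, with 6.84 on both aged MISR arrays (difference with age in WT −0.16, adjusted p = 0.469 from limma). Rps16 read 7.05, 6.81 and 6.94 in young WT and 6.78 and 6.88 in aged WT muscle. Of the 6 genes, Rpl26 and Rpl3l had aged WT arrays below all young WT arrays, and Rplp2, Rps16, Rps18 and Rps23 overlapped young WT.

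The comparison of aged MISR with aged WT muscle sets aged muscle with NF-κB inhibited in the myofibers beside aged muscle without it. Genotype, source and any difference in strain of the mice cannot be told apart in it. No ribosomal protein gene passed the test, and the genes lay on both sides of 0. Aged MISR muscle had the higher mean for 22 of the 55 genes and the lower for 33, with a median of −0.026, against 0.013 over all tested genes, of which 54.1% were higher. The sign of this median turned to 0.0099 when arrays were centred on their medians and to 0.032 without aged WT 2, and it was −0.13 without aged MISR 1 and 0.079 without aged MISR 2. No gene was called (0.0524% of all genes were, all higher), and the smallest adjusted p was 0.261 (limma). At an unadjusted p under 0.05 there were 4, all lower in aged MISR muscle (Rpl6, Rpl13, Rpl26 and Rps4l), against 4.09% of all genes lower and 12.2% in either direction, and the methods' t-test found none at that level or after adjustment. The aged MISR arrays were both above the aged WT arrays for 1 gene and both below for 6, against 20.3% and 15.4% of all genes. The large subunit had a median of −0.037 with 12 of 34 genes higher, and the small subunit −0.015 with 10 of 21 higher.

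Rpl26, which in human cells binds the p53 mRNA and raises its translation, read lowest in aged MISR muscle. It lies at chr11:68901566-68904534 and read 6.72, 6.60 and 6.61 in young WT, 6.49 on both aged WT arrays, and 6.03 and 6.29 in aged MISR muscle. No group overlapped another, with young WT highest and aged MISR lowest. The lowest reading, 6.03 on aged MISR 1, stood close to the array medians of 5.86 to 5.93. The difference was −0.16 with age in WT (adjusted p = 0.435), −0.33 between aged MISR and aged WT (standard error 0.098, adjusted p = 0.261) and −0.48 between aged MISR and young WT muscle (standard error 0.09, 0.715-fold, adjusted p = 0.0783, all from limma). Rps4l, the transcribed pseudogene of the Rps4x family, read 6.64, 6.55 and 6.75 in young WT, 6.73 and 6.76 in aged WT muscle, with 6.23 and 6.55 in aged MISR muscle. Its aged MISR arrays were below both aged WT arrays, by 0.35 on average (log2 difference −0.35, adjusted p = 0.300 from limma). Rps4x itself read 10.74, 10.79 and 10.84 in young WT, 11.07 and 10.81 in aged WT muscle, with 10.98 and 10.67 in aged MISR muscle, and all groups overlapped. Rps18 read 6.76, 6.51 and 6.63 in young WT, 6.67 and 6.54 in aged WT muscle, with 6.42 and 6.40 in aged MISR muscle, the aged MISR arrays being the lowest (−0.19 from aged WT, adjusted p = 0.474 from limma), whereas on its other feature past the filter the aged MISR arrays read 6.36 and 6.01, on both sides of aged WT at 6.19.

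**Figure D4:**
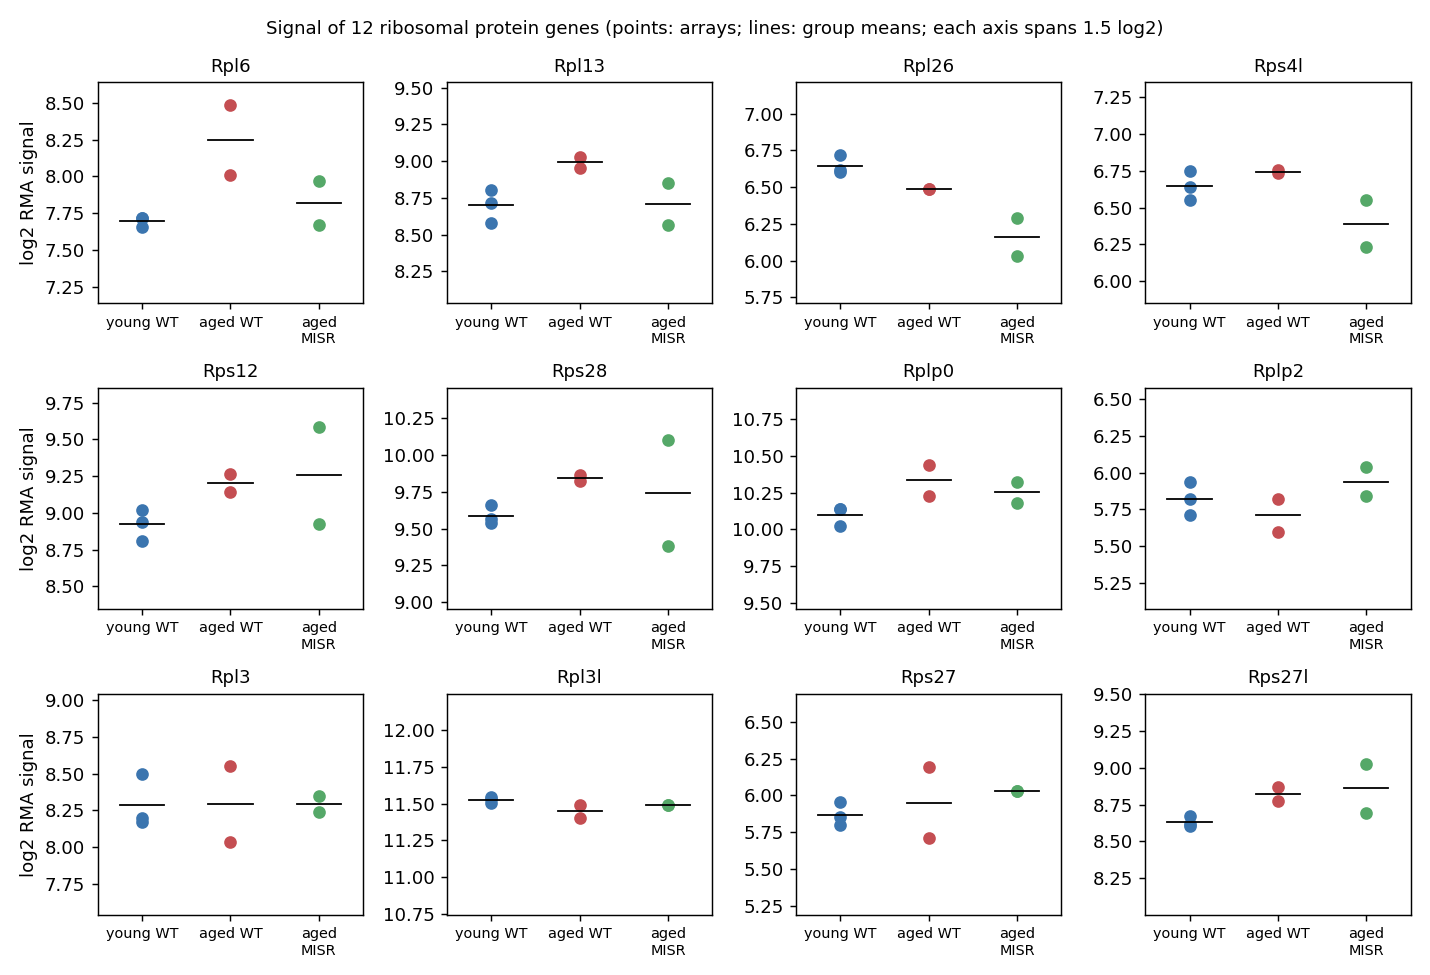
Log2 RMA signal of 12 ribosomal protein genes in young WT (3 arrays), aged WT (2 arrays) and aged MISR muscle (2 arrays), each gene from its brightest feature. Points are arrays, lines are group means and each vertical axis spans 1.5 on the log2 scale. Rpl26 is highest in young WT (6.60 to 6.72), lower in aged WT (6.49) and lowest in aged MISR muscle (6.03 and 6.29), Rpl6 and Rpl13 are highest in aged WT muscle, and Rps12 and Rps28 have the 2 aged MISR arrays far apart.

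Aged MISR against young WT muscle, which differ in both age and genotype and share their arrays with the comparisons above, gave 47 genes higher and 8 lower, with a median of 0.11. Over all tested genes the median was 0.039 with 60.7% higher. The large subunit had a median of 0.11 (30 of 34 higher) and the small subunit 0.13 (17 of 21 higher). No gene was called (0.591% of all genes were), 3 had an unadjusted p under 0.05 (Rpl26, Rps4l and Rps18, all lower, against 6.97% of all genes lower and 18.8% in either direction), and Rpl26 alone had an adjusted p under 0.1, as 2.1% of all genes did. For 6 genes both aged MISR arrays exceeded young WT (Rpl8, Rpl19, Rpl38, Rplp0, Rps27 and Rps27l, of which Rpl19 and Rplp0 did not do so on another feature past the filter) and for 3 they were below it (Rpl3l, Rpl26 and Rps18), against 24.4% and 13.6% of all genes. On its other feature past the filter, Rps18 overlapped young WT, with aged MISR arrays at 6.36 and 6.01 and young WT arrays at 6.06, 6.39 and 6.25. The methods' t-test called none after adjustment. Rpl26, Rps4l and Rps18 were all among the 17 genes with a mean signal under 8, of which 11 were higher and 6 lower. They read 6.03 to 6.76 on the 7 arrays, not far above the array medians of 5.86 to 5.93. Of the 38 genes with a mean of at least 8, 36 were higher and 2 lower, and 0 had an unadjusted p under 0.05 (limma).

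This comparison depended on which aged MISR array was used. The median was −0.025 without aged MISR 1 and 0.22 without aged MISR 2. Without aged MISR 2, with the remaining array assumed to vary like those of the other groups, 4 genes passed at an adjusted p under 0.05, against 3.49% of all genes. These were Rps12 (0.66, adjusted p = 0.0404), Rps28 (0.51, adjusted p = 0.0397) and Rpl34 (0.52, adjusted p = 0.0443), which were higher, and Rpl26 (−0.61, adjusted p = 0.0283, all from limma), which was lower. Only Rpl26 had both aged MISR arrays on the same side of young WT, and aged MISR 2 lay within or below the young WT range for the other 3.

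The largest positive differences of aged MISR from young WT muscle were those of Rps12, Rpl17, Rpl32, Rps7 and Rps27l. After Rps12 (0.33, adjusted p = 0.345 from limma) came Rpl17, which read 5.95, 6.01 and 6.09 in young WT, 6.40 and 6.02 in aged WT muscle, with 6.06 and 6.60 in aged MISR muscle, the only gene with its highest reading on aged MISR 2. Rpl32 read 10.88, 11.05 and 10.92 in young WT, 11.27 and 11.10 in aged WT muscle, with 11.48 and 11.03 in aged MISR muscle. Rps7, which also binds Mdm2, read 7.52, 7.51 and 7.65 in young WT, 7.65 and 7.85 in aged WT muscle, with 8.09 and 7.63 in aged MISR muscle. In Rpl17, Rpl32 and Rps7 at least 1 aged MISR array lay within the young WT range. Rpl14 and Rpl37a, after Rplp2 the largest in aged MISR against aged WT muscle (0.14 each), read 9.49 and 9.18, and 6.50 and 6.27, in aged MISR against 9.21 and 9.18, and 6.20 and 6.29, in aged WT muscle, with aged MISR 2 not above the higher aged WT array in either.

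Paralogs that replace a ribosomal protein in particular tissues were read beside their partners, each gene against itself across groups. Rpl3l, which takes the place of Rpl3 in ribosomes of adult heart and skeletal muscle, read 11.53, 11.54 and 11.50 in young WT. It read 11.40 and 11.49 in aged WT muscle, with 11.49 on both aged MISR arrays. The reading was the same to 4 decimals, 11.4919, on aged WT 3 and both aged MISR arrays. All 4 aged arrays were below young WT, by 0.080 in aged WT (log2 difference −0.080, standard error 0.06, adjusted p = 0.543) and by 0.035 in aged MISR muscle (−0.035, adjusted p = 0.768, limma), although the second turned to 0.0035 when arrays were centred on their medians. Rpl3 itself read 8.17, 8.19 and 8.50 in young WT, 8.55 and 8.03 in aged WT muscle, with 8.35 and 8.24 in aged MISR muscle. On this, its brightest feature, the group means were within 0.0066 of each other on the log2 scale, while single arrays of a group lay up to 0.52 apart, and the sign of the differences changed with the processing. Another Rpl3 feature past the filter read 7.83, 7.78 and 7.86 in young WT, 8.26 and 7.99 in aged WT muscle, with 7.68 and 7.51 in aged MISR muscle. No groups overlapped on it, and its differences were 0.30 for aged WT from young WT, −0.53 for aged MISR from aged WT and −0.23 for aged MISR from young WT muscle. With all 3 features of Rpl3 averaged these were 0.035, −0.13 and −0.091 (adjusted p from limma of 0.901, 0.713 and 0.677). That average took in a feature below the filter, with a mean signal of 5.62 and differences of −0.20, 0.15 and −0.053. The differences of Rpl3 thus depended on the feature read.

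Rps27l, a p53 target and the partner of Rps27, read 8.60, 8.67 and 8.62 in young WT, 8.77 and 8.87 in aged WT muscle, with 9.03 and 8.69 in aged MISR muscle. All 4 aged arrays were above young WT, by 0.19 (adjusted p = 0.406) and 0.23 (adjusted p = 0.275, limma). Rps27 read 5.80, 5.85 and 5.96 in young WT, 6.19 and 5.71 in aged WT muscle, with 6.03 on both aged MISR arrays. Rpl39, of the peptide exit tunnel, read 7.28, 7.45 and 7.05 in young WT, 7.69 and 7.30 in aged WT muscle, with 7.36 and 7.25 in aged MISR muscle, all overlapping. Its testis paralog Rpl39l was just below the filter, at 5.82 to 5.83 in young WT and 5.56 to 5.69 on the 4 aged arrays. Rpl10l, the testis paralog of Rpl10, read 3.32 to 3.47 on all arrays, well below the array medians.

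Rpl7 read 8.13, 8.13 and 7.97 in young WT and 8.37 and 8.19 in aged WT muscle, while Rpl7l1, which takes part in ribosome assembly, read 7.45, 7.63 and 7.77 in young WT and 7.64 and 7.63 in aged WT muscle. Rpl22 read 6.48, 6.08 and 6.26 in young WT, 6.35 and 6.38 in aged WT muscle, with 6.32 and 6.16 in aged MISR muscle. Rpl22l1 read 6.26, 5.94 and 6.21 in young WT, 6.20 and 6.07 in aged WT muscle, with 6.16 and 5.90 in aged MISR muscle. Of these 4, Rpl7 alone had aged WT arrays above all young WT arrays. On another Rpl7 feature, below the filter, aged WT stood lower, with a difference of −0.14 from young WT. Fau, whose product is cleaved to the small subunit protein eS30 and which the symbol rule does not take in, read 11.49, 11.59 and 11.56 in young WT, 11.75 and 11.61 in aged WT muscle, with 11.76 and 11.55 in aged MISR muscle, and aged WT was above young WT by 0.14 (adjusted p = 0.473 from limma).

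Other features of these genes were read as well. Of the 24 genes with several features, 17 had at least 2 with their own values past the filter. The features past the filter had 1 sign in 13 of the 17 genes for aged WT against young WT. They did so in 8 of the genes when aged MISR was set against aged WT and in 12 against young WT. Features below the filter were not counted. In Rpl3, Rpl7, Rpl35 and Rps28 such a feature had a negative difference for aged WT against young WT (−0.20, −0.14, −0.046 and −0.21). Their brightest features had positive ones. In Rps18 such a feature read higher in aged WT (0.11), against −0.025 on the brightest feature. Features of 1 gene differed by over 2 in mean log2 signal in 20 of the 24 genes, so signals were not compared between genes. The 51 features past the filter that list a ribosomal protein symbol together with others, which no gene above was read from, had medians of 0.15 (42 higher, 9 lower), −0.035 (19 and 32) and 0.13 (39 and 12) in the 3 comparisons. Equal readings, to 4 decimals, on at least 2 arrays occurred in 12 of the 55 genes (21.8%), as in Rpl26 on both aged WT arrays, and in 32.6% of all tested genes, and both aged WT arrays read the same in 452 of them.

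The differences were also read by the pyrimidine run at the start site. The 24 tested genes with the run had medians of 0.14, −0.012 and 0.11 in the 3 comparisons, and the 19 tested genes with a start but no run had 0.11, −0.037 and 0.12.

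The wider translation machinery was read in 4 further lists, and no gene of any of them was called in any comparison. Of 69 ribosome assembly factors and RNA polymerase I components, 58 were higher and 11 lower in aged WT than young WT muscle (median 0.12), 25 and 44 in aged MISR against aged WT muscle (−0.036), and 51 and 18 when aged MISR was set against young WT (0.061). Npm1, a nucleolar chaperone of ribosome assembly, read 10.09, 10.17 and 10.19 in young WT, 10.73 and 10.42 in aged WT muscle, with 10.50 and 10.11 in aged MISR muscle, and its highest arrays were aged WT 2 and aged MISR 1 (difference with age in WT 0.42, adjusted p = 0.213 from limma). Taf1a, a subunit of the RNA polymerase I factor SL1, and Utp18, of the small subunit processome, had differences of 0.41 and 0.34 with age in WT (adjusted p = 0.190 and 0.154 from limma), and Utp11, of the same processome, had −0.18 (adjusted p = 0.364). By array, the median of this list was 0.066 and 0.12 on aged WT 2 and 3 and 0.13 and 0.019 on aged MISR 1 and 2, so that aged WT 3 was the higher of its group here.

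Of 44 translation factors, 28 were higher with age in WT and 16 lower (median 0.081), 19 and 25 in aged MISR against aged WT (−0.0095), and 32 and 12 when aged MISR was set against young WT (0.056). Eif4g3, a scaffold of cap-dependent initiation, read 10.36, 10.41 and 10.45 in young WT, 10.86 and 10.72 in aged WT muscle, with 10.57 and 10.52 in aged MISR muscle, and no groups overlapped (0.38 with age in WT, adjusted p = 0.0898 from limma). The initiation factor Eif1a differed by 0.41 (adjusted p = 0.110) and Eef1d, of the elongation factor exchange complex, by −0.20 (adjusted p = 0.375) with age in WT, and Eef1a1, the elongation factor of many tissues, by 0.27 between aged MISR and aged WT muscle (adjusted p = 0.254, all from limma).

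The proteins of the mitochondrial ribosome are encoded by a separate set of nuclear genes. Of 69 tested genes, 39 were higher and 30 lower in aged WT than young WT muscle (median 0.011), 53 and 16 in aged MISR against aged WT (0.059), and 56 and 13 when aged MISR was set against young WT (0.065). By array, their median was −0.035 on aged WT 2, where the cytosolic genes stood at 0.19, and 0.032, 0.086 and 0.041 on aged WT 3, aged MISR 1 and aged MISR 2. Aged WT 2 held the lowest reading of 27 of the 69. Mrps35 had the largest positive and Mrpl37 the largest negative difference with age in WT (0.27 and −0.22, adjusted p = 0.238 and 0.253 from limma), and Mrpl58 had the largest positive difference between aged MISR and aged WT muscle (0.35, adjusted p = 0.218 from limma).

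Among 28 tested genes of signalling to ribosomal protein mRNAs, 17 were higher and 11 lower in aged WT than young WT muscle (median 0.017), and again 17 and 11 in aged MISR than aged WT muscle (0.017). In aged MISR against young WT muscle 19 were higher and 9 lower (0.073). Rictor, the defining subunit of mTORC2, read 8.50, 8.65 and 8.52 in young WT, 9.29 and 9.16 in aged WT muscle, with 9.09 and 8.89 in aged MISR muscle. The 3 groups did not overlap, and the differences were 0.67 with age in WT (adjusted p = 0.0517) and 0.43 between aged MISR and young WT muscle (adjusted p = 0.0920, limma). Mtor read 9.34, 9.44 and 9.39 in young WT, 9.30 and 9.41 in aged WT muscle, with 9.38 and 9.39 in aged MISR muscle, and Larp1 10.98 to 11.20 on the 7 arrays. Sesn3 and Ddit4, both of which restrain mTORC1, differed by 0.44 between aged MISR and young WT (adjusted p = 0.101) and by −0.33 between aged WT and young WT muscle (adjusted p = 0.426, limma).

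**Figure D5:**
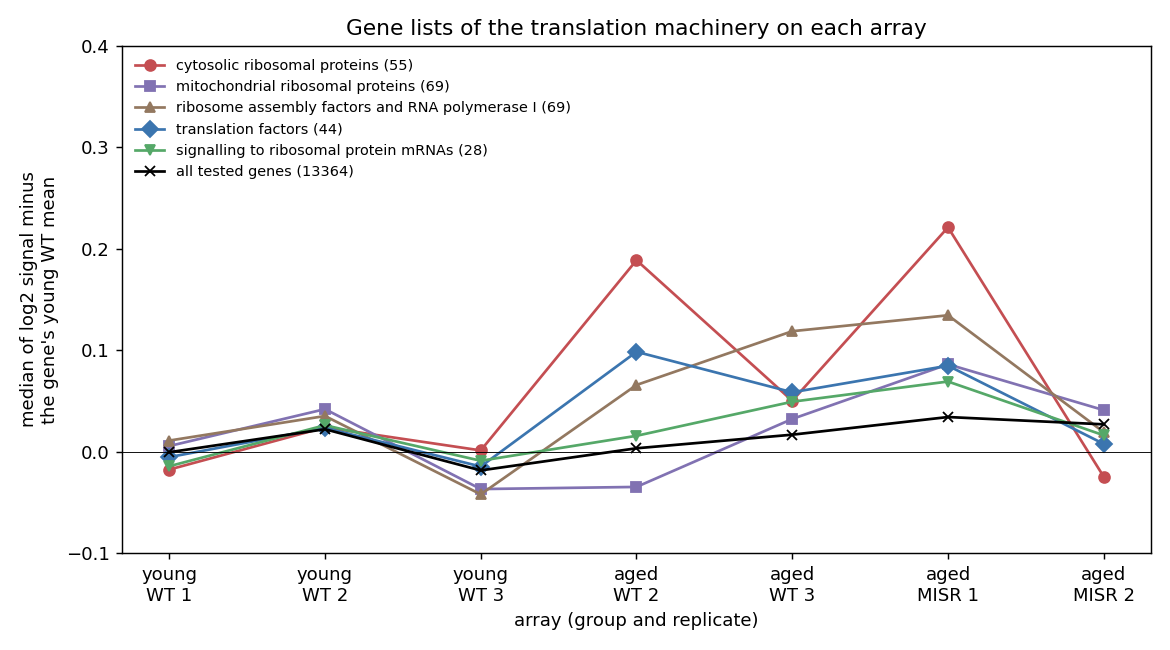
Median over the tested genes of each list of log2 signal minus the gene's young WT mean, on each of the 7 arrays, for 5 lists of the translation machinery (tested genes in parentheses) and for all tested genes. Cytosolic ribosomal protein genes are highest on aged WT 2 (0.19) and aged MISR 1 (0.22), where mitochondrial ribosomal protein genes stand at −0.035 and 0.086.

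The 9 ribosomal protein genes below the filter were read as values only. Their differences with age in WT ranged from the −0.21 of Rpl32l to the 0.21 of Rps15. Rps15, named here after its values were seen, read 5.31, 5.31 and 5.20 in young WT, 5.72 and 5.23 in aged WT muscle, with 4.93 and 4.83 in aged MISR muscle. The aged MISR arrays were below all others, at signals under the array medians of 5.86 to 5.93. Rps14, Rps29, Rpl30 and Rpl37 read between 4.81 and 5.93 on all arrays.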

How the data were processed

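RNA from skeletal muscle was hybridised to 7 Affymetrix Mouse Gene 2.0 ST arrays (3 young WT, 2 aged WT, 2 aged MISR). The authors normalized them by RMA, and the deposited values are log2 signals. The version of RMA, the mice's sex and the muscle sampled were not given in the sources used here. Each array is taken as a separate mouse as the labels number them. For arrays, their number and the signal over background limit the precision.

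Of 41345 features, 23521 carried 1 gene symbol in the platform annotation, and 1820 with several symbols and 16004 without a listing were left out. For each of 22180 genes the feature with the highest mean was kept, and 13364 genes at or above the array median on at least 2 arrays were tested. All 64 ribosomal protein genes matched RefSeq by gene ID and symbol. Differences between group means came from limma 3.58.1 (R 4.3.3), fitted once over 7 arrays (4 residual and 3.13 prior degrees of freedom), with Benjamini-Hochberg adjustment over all tested genes and a threshold of 0.05. Tests are two-sided. Gene lists are described by counts and medians beside those of all tested genes. The genes of the report and the gene lists were chosen with earlier results of these data known. Named were genes called in a comparison, the 5 largest and 5 smallest differences of each comparison, Rplp0, Rplp1, Rplp2, Rpsa, paralog pairs, Rps6, Rpl5, Rpl11 and Rpl13a, and up to 4 genes of each other list, and further genes were added to describe a count.

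The steps were tested on simulated data for aged WT against young WT (13364 genes, 50 changed at each size). Recovery was 2% at a log2 difference of 0.25, 46% at 0.5, 84% at 1 and 96% at 2, with 5 false calls. Alternatives were a second quantile normalization, centring on array medians, no filter, a filter at the 60th percentile, averaging the features of a gene, omission of each array and of 2 arrays together, a replicate block, a trended and robust prior, array weights, fits of only 2 groups, Student's t-test (the methods' t-test, which they state for other assays and not for the arrays), an adjusted p under 0.1, and canonical genes alone. Some ribosomal protein genes are not reported here. The start-site sequences are from RefSeq (GRCm38.p6). Figures were drawn with Python 3.11.15 and matplotlib 3.10.9.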

Additional observations from a re-analysis of the deposited data

How the results depend on the processing

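In simulated data for aged WT against young WT a log2 difference of 0.25 was recovered in 2% of genes, and all but 5 of the 55 ribosomal protein genes differed by less than that. The count of called genes was 0 in aged WT against young WT and in aged MISR against aged WT muscle under all 20 alternatives. In aged MISR against young WT muscle it was 1 at an adjusted p under 0.1 and 0 to 4 with each array left out, the 4 coming without aged MISR 2. Leaving out each array gave medians of 0.050 to 0.19 for aged WT against young WT, −0.13 to 0.079 for aged MISR against aged WT, and −0.025 to 0.22 for aged MISR against young WT muscle. Without both aged WT 2 and aged MISR 1 the last was −0.025. Aged WT 2 and aged MISR 1 thus carried most of the higher medians, and the cause was not tested.

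Rpl3l in aged MISR against young WT muscle was 0.0035 with arrays centred on their medians. Rpl3, read from its brightest feature, differed by so little that its sign turned often. For aged WT against young WT it was −0.033 after a second quantile normalization, −0.25 without both aged WT 2 and aged MISR 1, −0.0069 with the replicate block, and −0.25 to 0.27 with each array left out. For aged MISR against aged WT it was 0.034 with centring, 0.20 without both arrays, 0.0028 with the block, and −0.26 to 0.26 with each array left out. For aged MISR against young WT it was −0.088 after the second normalization, −0.091 with the mean of its features, −0.049 without both arrays, −0.0042 with the block, and −0.054 to 0.11 with each array left out.

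With the replicate number as a block, 0 ribosomal protein genes and 0 genes in all were called in each comparison. The numbers are not taken to pair the arrays, since the correlations of same-numbered arrays' deviations from their group means were −0.22, −0.10, −0.0082, −0.15 and −0.078. By the methods' t-test 6, 0 and 1 of the 55 genes had an unadjusted p under 0.05 in the 3 comparisons, against 14.6%, 5.16% and 12.8% of all genes, and 0 did after adjustment.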
